A study of Nothobranchius furzeri and Iconisemion striatum and Callopanchax occidentalis with 18 samples.

Results

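The miR-196 family comprised the 5 rows of the deposited count table whose names start with miR-196 (miR-196a-5p, miR-196a-3p, miR-196b, miR-196c and miR-196d), of 291 mature miRNAs listed in all. miR-196 genes of vertebrates lie within the Hox clusters, the gene arrays that give cells their position along the body axis. Their place is toward the posterior end, next to the Hox9 genes. In the mouse, miR-196 directs cleavage of the messenger RNA of Hoxb8, and in the zebrafish the family acts on hoxb8a, on the patterning of the axial skeleton and on the start of the pectoral fin. The miR-10 genes lie in the same clusters beside the Hox4 genes, which makes the 2 families neighbours with different places along the axis.

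Small RNAs of whole embryos, all at the somite stage, were sequenced in 18 libraries from 8 killifish species. Diapause is a halt of development that can be reversed, and embryos of annual killifish pass the dry season in it when their pool is gone. Nothobranchius furzeri carries the label annual. Of its 5 libraries in diapause, replicate 1 was of strain MZM0403 and replicates 2 and 3 of strain MZM0410, replicate 3 after 2 weeks in that state. Replicates 4 and 5 were of GRZ x MZZW, after 1 and 2 months. A further 3 libraries of strain MZM0410 were not in diapause. The other species labelled annual, Callopanchax occidentalis and Nematolebias papilliferus, had 1 library per species, in diapause. Embryos of the non-annual species were not in diapause. Aphyosemion striatum, whose organism name in the labels is Iconisemion striatum, had 4 libraries, and Epiplatys dageti monroviae, Rivulus cylindraceus, Aplocheilus lineatus and Austrofundulus leohoignei had 1 library per species. The labels call A. leohoignei non-annual, although its genus is usually described as annual. The labels give no strain for the species other than N. furzeri and no age in hours or days for any embryo, and they do not say that replicates came from separate clutches. The spread behind each p-value is therefore that of these libraries alone, and part of it may be technical.

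Libraries held between 371908 and 4177400 counts assigned to miRNAs, which were between 1.43% and 77.3% of their 18 to 33 nt reads. Levels are given as RPM, the reads per 1000000 of the counts assigned to miRNAs in the library. A count of 0 allows up to 3 counts, between 0.718 and 8.07 RPM depending on the library. Muscle, nerve, epithelial and liver miRNAs were counted in every library (6, 7, 10 and 1 rows, with summed levels of 62.2 to 804, 46.1 to 2393, 3734 to 28609 and 1.33 to 69.7 RPM). The 3 rows of red blood cell miRNAs were at 0 in 2 libraries and reached a summed level of 582 RPM. The 7 rows listed for clearance of maternal messenger RNAs in the early embryo (miR-430) summed to between 8399 and 655216 RPM. Embryos of the same labelled stage thus differed widely in these miRNAs, and their part in the results below was not tested.

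The family was present almost entirely as 1 of its 5 rows. miR-196a-5p, the strand taken from the 5′ side of the miR-196a hairpin, held 15794 of the family's 15814 counts (99.9%), with between 187 and 2255 counts in each of the 18 libraries. The other 4 rows held 20 counts in all libraries together. Rows of near-identical family members can share reads, and how reads matching several miRNAs were counted is not given in the sources used here, so the split between miR-196a-5p and the rows b, c and d is that of the authors' counting.

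miR-196a-3p, named for the opposite strand of the same hairpin, had 8 counts over 4 libraries and 0 in the other 14. It had 5 counts in E. dageti monroviae, where it was 0.513% of the reads of both strands (95% Wilson interval 0.219 to 1.20%). N. papilliferus, A. leohoignei and A. lineatus had 1 count each, with shares of 0.263%, 0.116% and 0.139%. All 8 N. furzeri and all 4 A. striatum libraries were at 0. In the 14 libraries at 0, the 5′ strand was at least 62.3-fold (C. occidentalis) to at least 752-fold (N. furzeri not in diapause, replicate 1) higher, taking the floor of 3 counts per library for the 3′ strand. Across all libraries, then, nearly all reads counted for miR-196a fell on the row of the 5′ strand. The miRNA reference is not given in the sources used here. Reads of a 3′ strand that differs from it can be lost, and whether both rows count the same hairpin genes cannot be seen.

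miR-196c had 1 count in each of 6 libraries: N. furzeri in diapause replicates 2, 4 and 5, N. furzeri not in diapause replicate 1, C. occidentalis and replicate 4 of A. striatum. miR-196d had 5 counts, of which A. leohoignei held 2 and replicates 1 and 3 of N. furzeri in diapause and replicate 1 of the embryos not in diapause held 1 each. miR-196b had 1 count, in replicate 3 of N. furzeri in diapause. The 5 counts of miR-196a-3p in E. dageti monroviae were the one value of these rows above the floor of 3 counts. None of miR-196a-3p, miR-196b, miR-196c and miR-196d passed the filter on low counts in any comparison, and their ratios were not tested between groups. Their levels were tested only in the alternatives without this filter, where no miR-196 row was called.

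**Figure D1:**
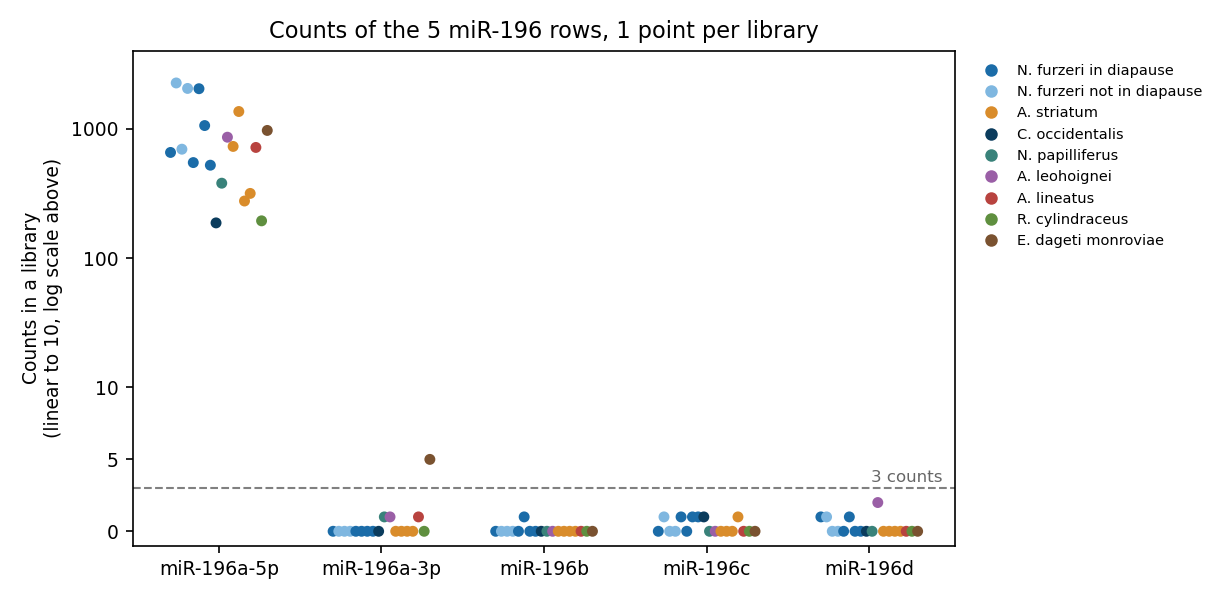
Counts of the 5 miR-196 rows, 1 point per library (18 points per row, coloured by species and diapause label); the y axis is linear up to 10 counts and logarithmic above, and the dashed line marks 3 counts. miR-196a-5p lies between 187 and 2255 counts, and the other rows lie at 0 to 2 counts except for the 5 counts of miR-196a-3p in E. dageti monroviae.

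miR-196a-5p ranged from 246 RPM in C. occidentalis to 1848 RPM in E. dageti monroviae, a 7.50-fold range with a median of 531 RPM, and was between the 27th and the 54th most abundant miRNA of its library. In N. furzeri in diapause it stood at 471, 944, 798, 258 and 418 RPM in replicates 1 to 5. In N. furzeri not in diapause it stood at 540, 540 and 804 RPM in replicates 1 to 3, all within the range of the embryos in diapause. In A. striatum it stood at 497, 564, 256 and 420 RPM in replicates 1 to 4. The N. furzeri libraries in diapause alone spanned a 3.67-fold range, and of the 13 libraries outside that group 10 lay within it, 2 below it and 1 above it.

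Among the single libraries, E. dageti monroviae had 1848 RPM (95% Wilson interval 1735 to 1968 RPM) and A. leohoignei 788 RPM (737 to 842 RPM). A. lineatus had 613 RPM (570 to 660 RPM), R. cylindraceus 522 RPM (453 to 600 RPM), N. papilliferus 409 RPM (370 to 453 RPM) and C. occidentalis 246 RPM (214 to 284 RPM). These intervals cover counting error only. Ordered by mean level, the groups ran from E. dageti monroviae through A. leohoignei, N. furzeri not in diapause (628 ± 152 RPM, SD, n = 3), A. lineatus, N. furzeri in diapause (578 ± 284 RPM, n = 5), R. cylindraceus, A. striatum (434 ± 132 RPM, n = 4) and N. papilliferus to C. occidentalis. From A. leohoignei down to N. papilliferus the level or mean of every other group lay within the range of the N. furzeri libraries in diapause. That group mixes strains, durations and lanes or pools of the library names, and single libraries give no spread between replicates. Lying within its range therefore does not show that the species had the same level. C. occidentalis lay below that range by less than the counting interval of its own value.

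**Figure D2:**
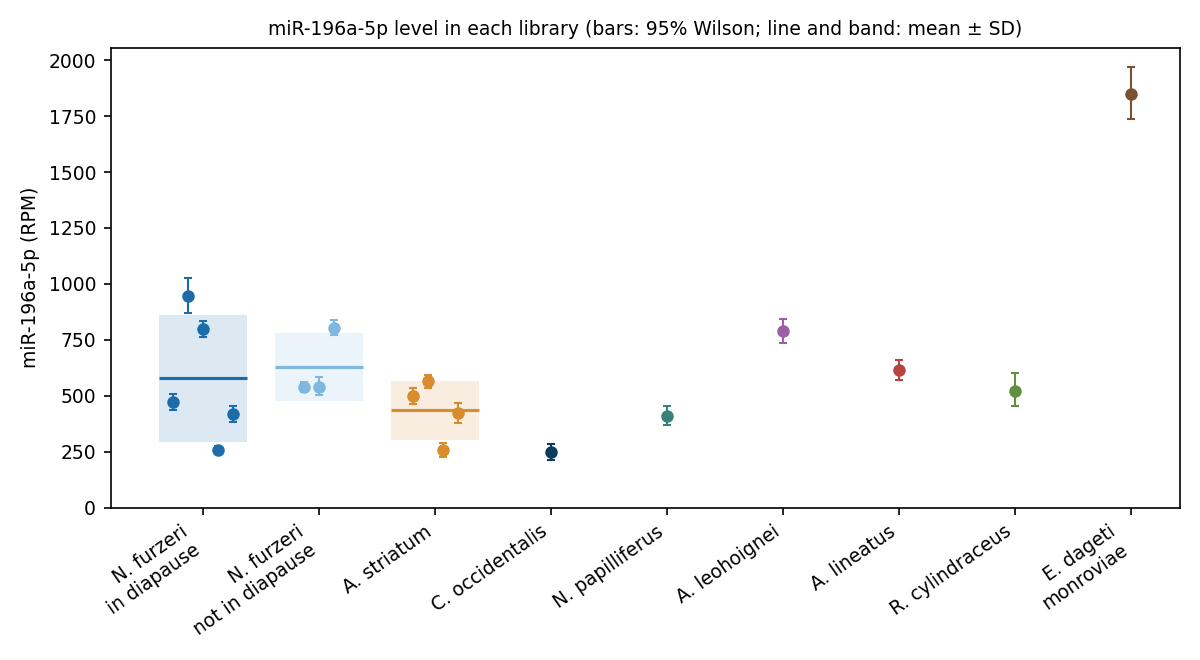
Level of miR-196a-5p (RPM, linear axis from 0) in each of the 18 libraries, grouped by species and diapause label. Points are libraries with 95% Wilson intervals, and the line and band are the mean and SD of groups with replicates: E. dageti monroviae stands at 1848 RPM, and the other 17 libraries lie between 246 and 944 RPM.

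The high place of E. dageti monroviae depended on what the counts were scaled to. With TMM scaling over the 18 libraries (the trimmed mean of M-values of edgeR, which sets aside miRNAs that differ most) it stood at 787 CPM, in place 4 of 18, below A. lineatus at 1102 CPM and 2 N. furzeri libraries (1043 CPM in replicate 3 not in diapause and 1041 CPM in replicate 3 in diapause). By the lane or pool in the deposited library names, places 1 to 3 with TMM were all pool 3 and places 13 to 18 all lane 1. E. dageti monroviae was also lane 1, and the part of lane or pool in this order was not tested. Scaled to all 18 to 33 nt reads E. dageti monroviae stood at 26.4 reads per 1000000, in place 17 of 18. Only 1.43% of its small RNA reads were counted on miRNAs. R. cylindraceus was in place 18 at 19.7 and N. furzeri not in diapause replicate 3 in place 1 at 266, a 13.5-fold range over the libraries. The last place of C. occidentalis in RPM depended on the scaling too. It was in place 13 with TMM (398 CPM) and in place 8 by 18 to 33 nt reads (137 per 1000000). A level scaled to 18 to 33 nt reads equals the RPM multiplied by the share of those reads counted on miRNAs. A low share therefore lowers it by construction. The cause of the differences in that share between libraries was not tested.

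N. furzeri embryos in diapause were first compared with those not in diapause, which asks whether the family differs with the arrest of development. miR-196a-5p did not pass, with 578 ± 284 RPM (SD, n = 5) in diapause and 628 ± 152 RPM (n = 3) outside it. Its log2 fold change was -0.096 (SE 0.40, 95% interval -0.99 to 0.80) and its adjusted p was 0.894 in edgeR's quasi-likelihood test, with an unadjusted p of 0.816. The call count was 0 of 1 tested row of the family, against 0 of 161 miRNAs tested (0%), of which 24 had an unadjusted p under 0.05; DESeq2 called 2 of 265 (0.755%), neither of them a miR-196 or miR-10 row. The groups overlapped, as they did in TMM-scaled CPM for all but 8.7% of the miRNAs tested. The direction was not fixed: it turned to 0.30 within pool 3, a set of libraries known from the deposited library names, to 0.30 within strain MZM0410 and to 0.24 with the pool or lane in those names as a covariate. These are not separate checks. All libraries not in diapause were pool 3, so with the covariate only pool 3 libraries inform the difference. In diapause, pool 3 held replicates 3 and 4 and MZM0410 replicates 2 and 3, so replicate 3 was in both.

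Within the diapause group the labels give a duration for replicates 3, 4 and 5 alone, and strain and duration cannot be told apart. By strain, both libraries of GRZ x MZZW, after 1 and 2 months, had the lowest levels (258 and 418 RPM), both libraries of MZM0410 the highest (944 and 798 RPM) and the library of MZM0403 lay between them (471 RPM). The miR-10 family took 92.6% and 87.5% of the counts in the GRZ x MZZW libraries and between 70.3% and 82.8% in the other 3. Of the counts outside the miR-10 family, miR-196a-5p made up 1591, 3175, 4626, 3480 and 3347 reads per 1000000 in replicates 1 to 5, an order in which the GRZ x MZZW libraries no longer lay lowest. With TMM scaling in the comparison above they stood at 257, 689, 878, 558 and 470 CPM, and MZM0403 was lowest. Replicates 1 and 2 were lane 1, 3 and 4 pool 3 and 5 pool 2, and the part of lane or pool was not tested.

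N. furzeri not in diapause was compared with A. striatum, also not in diapause. These were the species of either life style that had replicates outside diapause. The mean of miR-196a-5p was 628 ± 152 RPM (SD, n = 3) in N. furzeri and 434 ± 132 RPM (n = 4) in A. striatum, and the libraries overlapped, while 37.6% of the miRNAs tested did not overlap in TMM-scaled CPM. The log2 fold change was 0.68 (SE 0.41, 95% interval -0.22 to 1.59) with an adjusted p of 0.228 by edgeR, so the difference did not pass, while 34 of 157 miRNAs did (21.7%). N. furzeri in diapause, which shares the A. striatum libraries with this comparison, had a log2 fold change of 0.58 (SE 0.40, 95% interval -0.30 to 1.47, edgeR adjusted p = 0.280) against A. striatum, where 59 of 158 miRNAs passed (37.3%). The intervals reach from a small decrease to about the size of the upper bounds given, so neither comparison shows that the species have the same level.

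With the counts outside the miR-10 family as library size, miR-196a-5p passed as higher in N. furzeri, by 1.75 outside diapause (edgeR adjusted p = 0.0455) and by 2.06 in diapause (0.00625). Of all miRNAs tested, 22.9% and 55.7% passed with it. That scaling also moved the median log2 fold change of all tested miRNAs to 1.03 and 1.68, and relative to it miR-196a-5p stood at 0.73 and 0.38, close to the values of 0.69 and 0.36 with TMM.

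In the comparison of life styles, 3 annual species stood against 5 non-annual ones, with counts summed per species so that each species was 1 replicate. Every annual species was in diapause, which cannot be told apart from life style. Neither the relatedness of the species nor the lane or pool was modelled. C. occidentalis, N. papilliferus, A. leohoignei, R. cylindraceus and E. dageti monroviae were in lane 1 and A. lineatus was in pool 3. The summed libraries of N. furzeri came from lane 1, pool 2 and pool 3, and those of A. striatum from lane 1 and pool 3. miR-196a-5p stood at 488 RPM in N. furzeri, 246 RPM in C. occidentalis and 409 RPM in N. papilliferus, and at 470 RPM in A. striatum, 788 RPM in A. leohoignei, 613 RPM in A. lineatus, 522 RPM in R. cylindraceus and 1848 RPM in E. dageti monroviae. The annual species thus lay at the low end in RPM, with N. furzeri above A. striatum as the overlap between the groups (6.36% of the miRNAs tested had none in TMM-scaled CPM). The log2 fold change with TMM scaling was -0.27 (SE 0.62, 95% interval -1.65 to 1.11, edgeR adjusted p = 0.858), and 0 of 173 miRNAs passed (0%), with 21 at an unadjusted p under 0.05 and 0 called by DESeq2. With library totals only the value was -1.15 (adjusted p = 0.479) beside a median of -1.19 for all miRNAs, so the low RPM of the annual species was shared with most miRNAs. Without A. lineatus the value was 0.021, and with A. leohoignei counted as annual it was -0.63 (SE 0.54, edgeR adjusted p = 0.493).

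**Figure D3:**
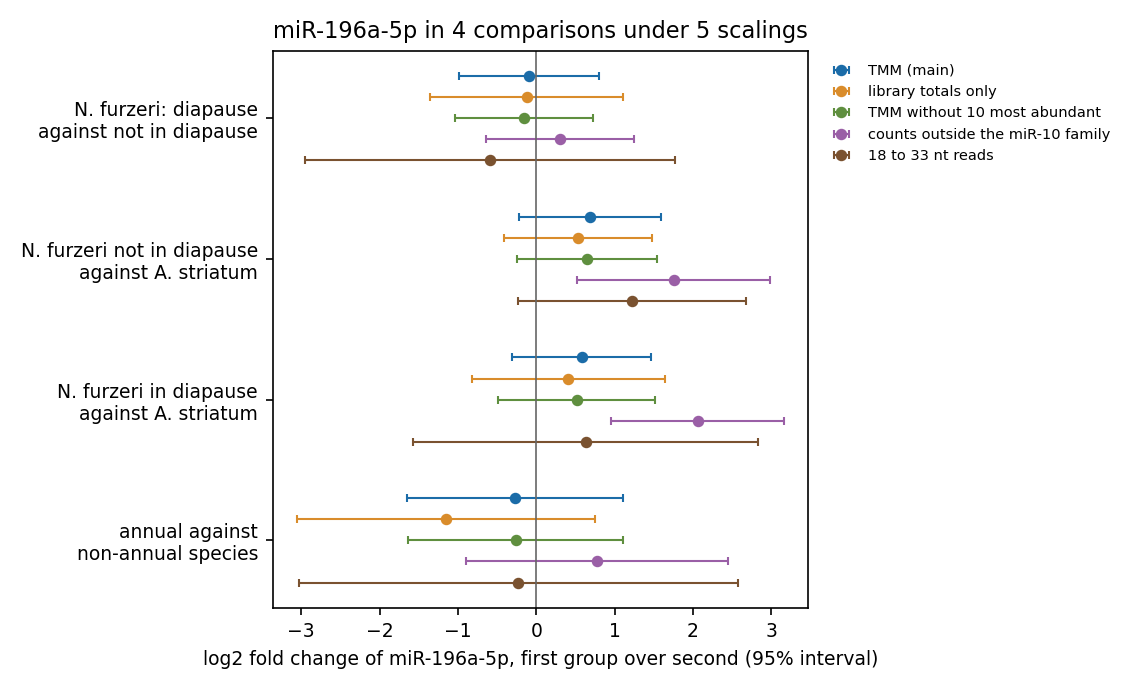
Log2 fold change of miR-196a-5p (first group over second, x axis) with its 95% interval from edgeR in the 4 comparisons (y axis), under 5 choices of library size in colours. With TMM every interval includes 0, and 2 intervals lie above 0, both against A. striatum with the counts outside the miR-10 family as library size (1.75 and 2.06).

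The miR-10 rows, 8 in number, were described as the other miRNAs of the Hox clusters. miR-10b-5p was the largest, at 53841 to 749246 RPM, followed by miR-10d-5p at 4996 to 186688 RPM, and together the 8 rows took between 5.98% (R. cylindraceus) and 92.6% (N. furzeri in diapause, replicate 4) of a library's counts. In R. cylindraceus miR-10b-5p was at its lowest, 53841 RPM, while miR-196a-5p stood at 522 RPM, near its median in RPM over the libraries. This place of miR-196a-5p depended on the scaling. In R. cylindraceus it was in place 15 of 18 with TMM (316 CPM) and in place 18 by 18 to 33 nt reads. miR-10b-5p had 103 counts for each count of miR-196a-5p in R. cylindraceus, 193 in E. dageti monroviae and 452 in A. leohoignei. At the other end it had 2928 in C. occidentalis and 2909 in replicate 4 of N. furzeri in diapause. The ratio of the anterior to the posterior miRNA of the clusters thus varied more widely between libraries than miR-196a-5p itself. miR-10b-5p alone had a 13.9-fold range in RPM, which enters this ratio.

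**Figure D4:**
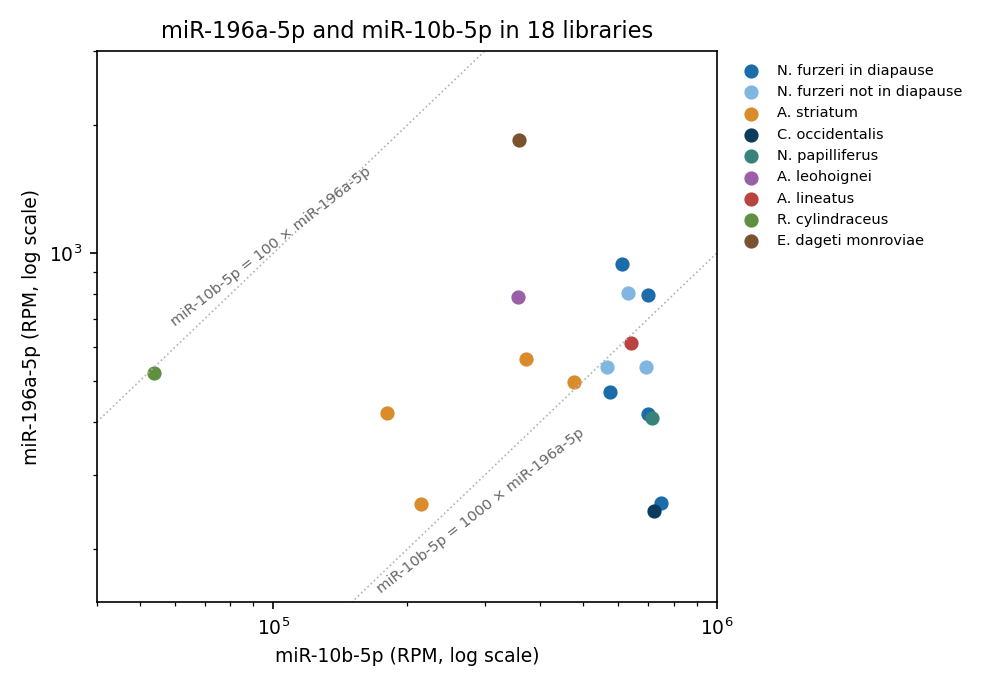
Levels of miR-10b-5p (x axis, RPM, log scale) and miR-196a-5p (y axis, RPM, log scale) in the 18 libraries, coloured by species and diapause label; dotted lines mark 100 and 1000 counts of miR-10b-5p per count of miR-196a-5p. R. cylindraceus lies at the left near the 100 line with 53841 RPM of miR-10b-5p. On this scale its miR-196a-5p of 522 RPM lies among those of the other species.

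A ratio of 2 miRNAs within a library does not depend on the scaling of libraries. The log2 ratio of miR-196a-5p to miR-10b-5p averaged -9.43 ± 0.51 (SD, n = 4) in A. striatum. In N. furzeri it averaged -9.99 ± 0.36 (n = 3) outside diapause and -10.31 ± 0.84 (n = 5) during it. The groups overlapped in each of the 3 comparisons. The difference was -0.32 between the N. furzeri groups (two-sided exact permutation p = 0.571), -0.56 between N. furzeri not in diapause and A. striatum (exact p = 0.171) and -0.88 between N. furzeri in diapause and A. striatum (exact p = 0.127). Adjusted over these 3 tests the exact permutation p-values were 0.571, 0.257 and 0.257, and the smallest p these designs can give are 0.0179, 0.0286 and 0.00794. The mean ratio was higher in A. striatum than in either N. furzeri group, but neither difference passed.

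Of the 8 miR-10 rows 6 were tested, and 0 of 6 passed in each of the 4 comparisons by edgeR. Against A. striatum, N. furzeri libraries in diapause had log2 fold changes of 1.48 (SE 0.65) for miR-10b-5p, 1.74 (SE 0.69) for miR-10d-5p and 1.46 (SE 0.56) for miR-10a-5p, with edgeR adjusted p of 0.0903, 0.0640 and 0.0564. miR-10c-5p stood at 0.28 (SE 0.57). miR-10b-2-3p, named for the 3′ strand of the second miR-10b hairpin, stood at -2.67 (SE 1.06, edgeR adjusted p = 0.0640), opposite in sign to the abundant rows. Its groups did not overlap in TMM-scaled CPM, as was so for 31% of the miRNAs tested, but they overlapped in RPM, with replicate 2 in diapause at 178 RPM and replicate 3 of A. striatum at 101 RPM. DESeq2 called 2 of the 8 rows (miR-10b-2-3p and miR-10d-5p) beside 28.9% of all miRNAs, and within pool 3 edgeR called 3 of 6 beside 38.5%, shares near those over all miRNAs. Without replicate 2 of N. furzeri in diapause miR-10b-2-3p was the one miR-10 row called by edgeR (-4.20, adjusted p = 0.00608), beside 42.5% of all miRNAs. The value of 0.58 for miR-196a-5p in the same comparison was smaller than those of the miR-10a, miR-10b and miR-10d 5′ strands, and the difference between miR-196a-5p and miR-10b-5p is the ratio tested above.

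Over the 18 libraries miR-196a-5p varied little compared with most miRNAs. The SD of its log2(RPM + 1) was 0.72, the third lowest of 111 miRNAs averaging at least 50 RPM, whose median SD was 1.38 and whose range was 0.62 to 4.15. The lower 2, named after their values were seen, were miR-25-3p (0.62) and miR-16a (0.66). miR-10b-5p stood at 0.97, in place 16, miR-10a-5p at 1.03, miR-10d-5p at 1.24, miR-10c-5p at 1.49 and miR-10b-2-3p at 2.58. With TMM-scaled CPM miR-196a-5p had an SD of 0.69 in place 13, and miR-10b-5p was in place 76. Scaled to 18 to 33 nt reads it was in place 9, and without E. dageti monroviae in place 2. This is a description of these libraries, with no test.

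**Figure D5:**
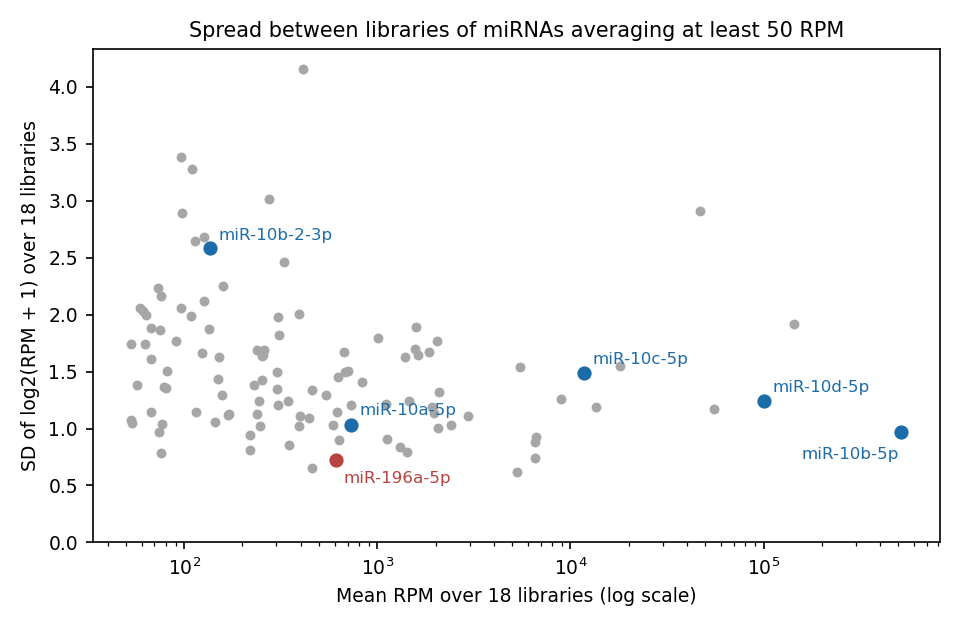
SD of log2(RPM + 1) over the 18 libraries (y axis) against mean RPM (x axis, log scale) for the 111 miRNAs averaging at least 50 RPM; grey points are single miRNAs, red is miR-196a-5p and blue are miR-10 rows. miR-196a-5p lies near the lower edge at 0.72, below all 5 miR-10 rows shown.

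The miRNAs whose pattern was most like that of miR-196a-5p were ranked by Pearson's r of log2(CPM + 1), TMM scaled, over the 18 libraries, among 110 other miRNAs averaging at least 50 RPM. miR-30e-3p came first (r = 0.75), miR-430a-5p, of the family that clears maternal messenger RNAs in fish embryos, came next (0.73), and miR-16a was in place 3 (0.73). miR-430a-5p ranged from 0 to 2822 RPM and had the largest SD of log2(RPM + 1) of the 111 miRNAs (4.15), so its r includes values down to 0. It averaged 412 RPM beside 144051 RPM for miR-430a-3p, named for the opposite strand, which was not among the 3 most alike. With RPM in place of TMM-scaled CPM, r was 0.44 for miR-30e-3p, 0.44 for miR-430a-5p and 0.75 for miR-16a, so miR-16a alone was among the 3 most alike on both scales. miR-10a-5p (0.62), miR-10b-5p (0.61) and miR-10d-5p (0.55) were in places 9, 10 and 13 with TMM, and stood at r = 0.067, -0.0064 and 0.046 with RPM. The points share library, depth and scaling, and 8 of the 18 are N. furzeri.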

How the data were processed

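The Illumina TruSeq small RNA kit was applied to total RNA, per the labels' protocols. Per the file headers, the authors filtered reads for quality, trimmed adapters, kept 18 to 33 nt and aligned them; the submitters' processing notes name Bowtie (1.0.0, 1.1.2), CASAVA 1.8.2 and bcl2fastq 1.8.3. The miRNA reference, mismatch setting and handling of multiply matching reads were not given in the sources used here, so a species whose sequence differs from the reference can lose counts. The deposited counts per mature miRNA were used; the deposited RPM values equalled counts over the library total (100% within 0.001). The unnamed total line and 2 columns matching no sample were left out.

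In R 4.3.3, edgeR 4.0.16 (filterByExpr, TMM, quasi-likelihood test, Benjamini-Hochberg adjustment over all miRNAs tested, threshold 0.05) was fitted to the whole table, with intervals from the F statistic. Alternatives used DESeq2 1.42.0 and limma 3.58.1. The scripts were tested on simulated data. Ratios had 0.5 added to each count. Batches are the lane or pool in the deposited library names (lane 1, pool 2 and pool 3, which may or may not be separate sequencing runs; N. furzeri not in diapause is all pool 3). Replicate numbers follow sample order and pair nothing. Named besides the family were the miR-10 rows and the 3 miRNAs most correlated with each member averaging at least 50 RPM. The members and lists were chosen with earlier results of these data known. Mature sequences and genome coordinates were not used here.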

Additional observations from a re-analysis of the deposited data

Results flagged for a closer look

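Samples standing far from their group were looked for in 20 groups of 4 or 5 libraries or species, and 2 were found. Chance flags about 1 in 20 groups if values are normally distributed. Both flags are for levels in RPM, which were not taken as logarithms, and that rate need not hold for skewed levels. miR-196a-5p in E. dageti monroviae (1848 RPM) stood apart from the other 4 non-annual species, with a gap of 0.769 of the group's whole range against a limit of 0.71; with TMM scaling it stood at 869 CPM in the comparison of species, below A. lineatus at 1278 CPM. miR-10b-2-3p in replicate 2 of N. furzeri in diapause (178 RPM) stood apart from the other 4 libraries of its group, with a gap of 0.819 of the range.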

How the results depend on the processing

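No paired analysis was possible because replicate numbers follow sample order and pair nothing. Ratios of miR-196a-3p, miR-196b, miR-196c and miR-196d to miR-196a-5p were planned and not run, since every value but 1 lay at or under the floor. Scaling to 18 to 33 nt reads and to counts outside the miR-10 family was chosen after seeing the data, as were the alternatives of the spread and the correlations. The number of miR-196 rows called was 0 in every comparison and alternative, except for 1 in each comparison with A. striatum when counts outside the miR-10 family served as library size, where miR-196a-5p came to 1.75 (not in diapause) and 2.06 (in diapause). In N. furzeri in and out of diapause its log2 fold change turned positive with that scaling (0.31), within pool 3 (0.30), within strain MZM0410 (0.30) and with pool or lane as a covariate (0.24), and lay between -0.26 and 0.10 with 1 library left out (0.10 without diapause replicate 1, 0.043 without replicate 3 not in diapause). With 1 library left out it lay between 0.41 and 0.96 for N. furzeri not in diapause against A. striatum and between 0.32 and 0.84 for N. furzeri in diapause. Between annual and non-annual species it was 0.78 with the counts outside the miR-10 family, beside a median of 0.83 for all tested miRNAs. The value lay between -0.53 and 0.021 with 1 species left out, the last without A. lineatus. The cause of these shifts was not tested. Ratios to miR-10b-5p kept direction with every library left out and with 0.1 or 1 added. Their differences were -0.57 to -0.026, -0.75 to -0.33 and -1.13 to -0.59 in the order of the report, and none passed. For N. furzeri not in diapause against A. striatum, leaving out 1 library leaves too few ways to split the libraries for any p under 0.05. Likewise, between the N. furzeri groups no adjusted p under 0.05 was possible when a library not in diapause was left out. That these alternatives did not pass was fixed in advance.

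Among miR-10 rows, in N. furzeri in and out of diapause miR-10b-5p (main value 0.35) came to -0.14 without diapause replicate 4 and to -0.073 within MZM0410, where miR-10b-2-3p (-1.08) came to 0.062 and miR-10d-5p (0.64) to -0.11. miR-10c-5p (-1.16 for N. furzeri not in diapause against A. striatum) came to 0.087 with the counts outside the miR-10 family. In diapause against A. striatum it (0.28) came to -0.090 with library totals only and lay between -0.13 (without diapause replicate 4) and 0.46 with 1 library left out (-0.047 without A. striatum replicate 4), and between annual and non-annual species (0.69) to -0.45 with library totals only. With counts outside the miR-10 family, 3 and 4 of 6 miR-10 rows were called against A. striatum (outside and in diapause). This scaling raises them by construction. The number of miRNAs called against A. striatum varied with scaling. Outside diapause it was 34 with TMM, 19 with library totals, 14 with 18 to 33 nt reads and 36 with counts outside miR-10. In diapause it was 59, 22, 7 and 88. Higher in N. furzeri were 12, 4, 8 and 30, and 23, 5, 2 and 80.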
